A study of Mus musculus with 8 samples.

Results

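Cytosolic ribosomal protein genes were described in ATAC-seq of mouse gastrocnemius, the main calf muscle. ATAC-seq measures how open chromatin is through cutting by a transposase. Members were the regions of the deposited table annotated to a protein-coding gene whose symbol is Rpl, Rps or Rplp followed by a number, with the letters a, x or l allowed after it. The rule found 356 regions of 76 genes among 489637 regions, 46 genes named for the large ribosomal subunit and 30 for the small one. It used names and no measured value. RefSeq lists 8 further symbols of this form, Rpl4, Rpl7a, Rpl9, Rpl15, Rpl17, Rpl32l, Rpl39l and Rps25. The rule found no region for them in the deposited table, so they are missing from the 76 genes and were not analysed here.

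The 8 libraries came from mice of 6 months of age that all carried the genotype Cre+:iMSBmal1 fl/fl. Vehicle libraries (n = 4) came from mice given vehicle, and iMSBmal1KO libraries (n = 4) from mice given tamoxifen, so the groups differed in tamoxifen as well as in the knockout and the effects of the 2 cannot be told apart. Bmal1 (symbol Arntl in the table) is the partner of CLOCK in the DNA-binding pair that drives circadian transcription. The labels name neither the promoter that drives Cre nor the deleted exon. They do not say whether replicates are separate animals, so p-values measure the spread between these libraries. Nuclei came from 2 whole muscles per library. In such bulk tissue, fewer nuclei of a type and less accessibility per nucleus cannot be told apart.

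The libraries held 4.31 to 29.5 M read equivalents in regions, a read equivalent being the signal divided by the value that 1 read adds in that library. The shallowest was Vehicle replicate 4, in which 16.5% of them were mitochondrial against 1.11% to 5.51% in the other libraries. All 8 fibre marker genes had promoter regions, at a median percentile of 97.5 among protein-coding genes, with a summed signal of 10462 to 17003 in Vehicle and 12889 to 15339 in iMSBmal1KO. Markers of other cell types had lower median percentiles. These were 30.59 for fibro-adipogenic, 29.86 for Schwann, 21.63 for smooth muscle, 17.96 for satellite, 8.18 for endothelial and 1.46 for leucocyte markers. Only 2 of 4 leucocyte, 2 of 3 smooth muscle and 2 of 3 Schwann markers had promoter regions. The promoter regions of Arntl summed to 898, 658, 987 and 650 in Vehicle and 875, 937, 766 and 879 in iMSBmal1KO, which did not pass the test (log2 change 0.14 ± 0.18 SE, limma adjusted p = 0.747). Promoter accessibility does not check the deletion.

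Ribosomal proteins form, with ribosomal RNA, the subunits of the ribosome: the small subunit reads the messenger RNA and the large subunit joins amino acids. Their genes are transcribed in nearly all cells at matched rates, and many of their transcripts begin at a C within a run of C and T, the TOP motif, through which mTOR signalling sets their translation. In skeletal muscle the paralogue Rpl3l takes the place of Rpl3 in part of the ribosomes, and Rpl3 rises again when muscle grows.

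RefSeq promoter sequences (GRCm38.p6) matched 57 of the 76 genes, with 69 transcript starts. A run of at least 5 C or T bases over the first base was found at 18 of the 69 starts (26.1%) against 8.59% of all 21263 starts, and a run of at least 8 at 15 starts (21.7% against 3.51%). The first base was C at 30.4% of the starts against 13.8% of all. The 30-base windows, from 15 bases before the start on, are given for 8 members, chosen for a run of at least 5 over a first base C and a start within 20 bases of a start in the deposited table, with the run in capitals. Other starts this close to the table's had no such run or began at T. They span both subunits and the acidic stalk, and include a member whose strongest region counts for another gene (Rps27) and one of the most accessible members (Rps21).
Rpl14 (chr9:120571502-120571531, plus strand): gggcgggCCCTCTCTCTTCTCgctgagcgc
Rpl35a (chr16:33056467-33056496, plus strand): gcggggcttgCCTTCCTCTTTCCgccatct
Rplp2 (chr7:141447636-141447665, plus strand): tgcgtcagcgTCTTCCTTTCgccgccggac
Rps6 (chr4:86857353-86857382, minus strand): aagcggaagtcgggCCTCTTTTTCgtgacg
Rps15a (chr7:118116133-118116162, minus strand): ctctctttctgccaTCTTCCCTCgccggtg
Rps18 (chr17:33955651-33955680, minus strand): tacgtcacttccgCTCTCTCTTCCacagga
Rps21 (chr2:180257364-180257393, plus strand): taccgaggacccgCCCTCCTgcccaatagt
Rps27 (chr3:90213634-90213663, minus strand): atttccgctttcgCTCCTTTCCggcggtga

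Rpl3l has 2 RefSeq starts, both on the plus strand and both inside an accessible region, and neither begins within a run of C or T. The first base was G at the upstream start and A at the downstream start, given for contrast with those of the other members.
Rpl3l upstream (chr17:24727811-24727840): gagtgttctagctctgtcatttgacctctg
Rpl3l downstream (chr17:24732670-24732699): gtcatcaacagctacagtgccccaaatgtc

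Further motifs were searched on both strands of the 300 bases from 250 before to 50 after each start. The letters CCGGAAG, bound by ETS factors, were in 33.3% of the ribosomal protein starts and 11.6% of all starts. AAGATGG, the core of the YY1 motif, was in 15.9% against 6.24%, and GGGCGG, the GC box, in 62.3% against 46.2%. TGACGTCA, the cyclic AMP response element, was in 7.25% against 2.23%, and TATAAA in 10.1% against 12.6%. CAGCTG, the E-box form bound by myogenic factors, was in 5.80% against 15.6%. These shares describe letters in a window and do not show binding.

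CACGTG, the E-box that BMAL1 and CLOCK bind, was in 8 of the 69 starts (11.6%) against 7.84% of all starts. The 8 starts belonged to 6 genes, and in all 6 the letters lay inside the strongest accessible region within 1000 bp of the gene's start. The 6 windows are shown because Bmal1 is the gene targeted, with the E-box in capitals.
Rpl13a (chr7:45128928-45128957, minus strand): cgctccgaaaccCACGTGacatcccgcccc
Rpl14 (chr9:120571337-120571366, plus strand): ccaagctcactgCACGTGtctgaggagaag
Rpl19 (chr11:98026679-98026708, plus strand): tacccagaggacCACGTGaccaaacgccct
Rpl23 (chr11:97782425-97782454, minus strand): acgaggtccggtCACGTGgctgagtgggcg
Rpl34 (chr3:130730536-130730565, minus strand): cacctaacttctCACGTGacgttcctaccg
Rps19 (chr7:24884781-24884810, plus strand): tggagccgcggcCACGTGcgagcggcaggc

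Accessibility of the ribosomal protein genes was concentrated at their starts. Of the 356 regions, 308 (86.5%) lay within 1000 bp of an annotated start, against 25.8% of the regions of all protein-coding genes. These promoter regions carried 97.5% of the members' signal in Vehicle. The table placed 277 regions at transcript starts, 31 at transcript ends, 17 in introns, 17 in 5' UTR exons, 12 in coding exons and 2 in 3' UTR exons. Rps14, which encodes a protein of the small subunit's platform, had the most regions, 26, and the median gene had 4. Among the 75 genes with a promoter region (all but Rps20), the strongest one had a median length of 463 bp against 307 bp for all protein-coding genes. It lay over a start in 54 of the 75 genes (72%), against 53.4% of all.

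Baseline promoter signal, summed over a gene's promoter regions and divided by their length, was higher at ribosomal protein genes than at the typical gene. The signal is the authors' scaled read count. Its median over the 75 genes was 416 per kb in Vehicle, against 220 per kb over 14417 protein-coding genes. The median member stood at the 70.4th percentile, 60 of 75 stood above the 50th and 14 above the 90th, and 1 stood below the 10th. Members named for the large subunit had a median of 402 per kb and those of the small subunit 487 per kb. A high baseline was not particular to the members. The median was 555 per kb for translation factors and other genes with TOP transcripts and 442 for proteasome subunit genes. Mitochondrial ribosomal protein genes had 321 and ribosome biogenesis genes 293 per kb.

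**Figure D1:**
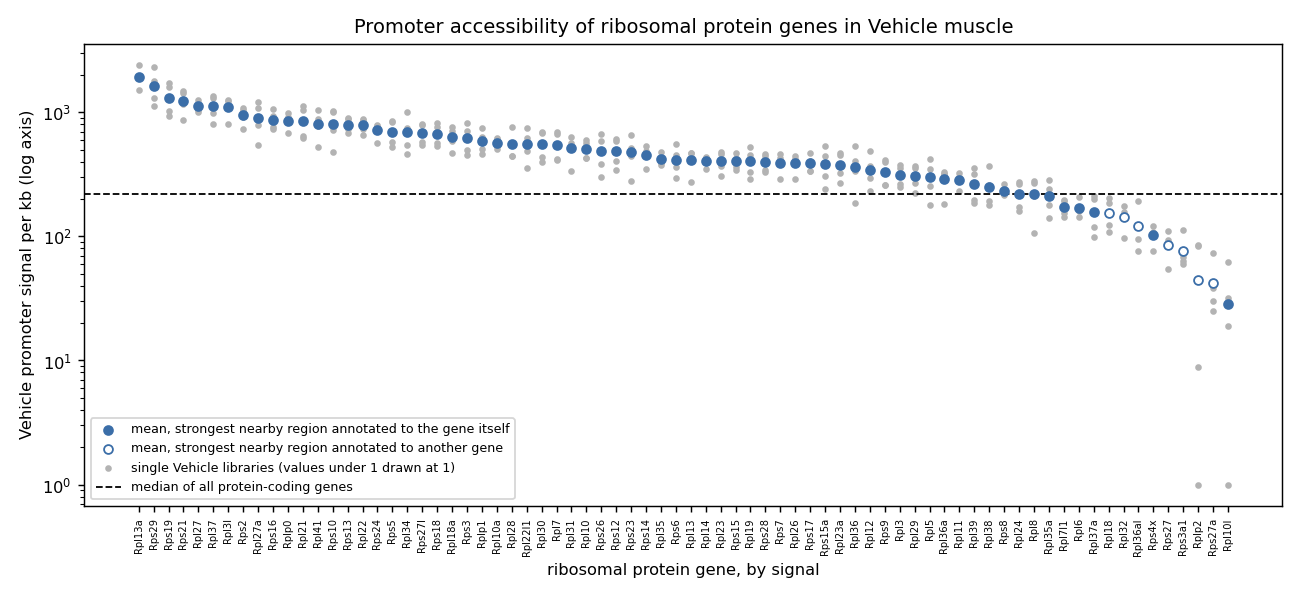
Promoter signal per kb (log axis) of ribosomal protein genes with a promoter region, in falling order, with 1 of the 75 not drawn. Large points are means of the 4 Vehicle libraries, small points single libraries, and the dashed line is the median of all protein-coding genes, 220 per kb. Open points mark genes whose strongest region within 1000 bp of a start is annotated to another gene, and they gather at the low end.

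Rpl13a, which encodes a large subunit protein that also silences inflammatory transcripts when released, had the highest level, 1937 ± 366 per kb (SD, n = 4). Its single promoter region had signals of 1455, 1171, 1138 and 916 in Vehicle, by replicate number. Rps29, a small subunit gene, followed at 1641 ± 543 per kb, with summed signals of 2113, 1614, 1184 and 1016. For both genes Vehicle replicate 1 was the highest and Vehicle replicate 4 the lowest library. Next came Rps19 and Rps21 of the small subunit, at 1314 ± 396 and 1243 ± 287 per kb, and Rpl27 of the large subunit, at 1118 ± 112 per kb. Rps19 is the gene most often mutated in Diamond-Blackfan anaemia. Rpl3l stood in the seventh place at 1103 ± 207 per kb. Between neighbours in this order the gaps were smaller than the larger of their SDs. The order also depends on the measure. By summed signal, not divided by length, Rps29 had rank 1 among members, Rpl3l rank 2 and Rpl13a rank 5.

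At the low end, Rpl10l, an intronless copy of Rpl10 known from the testis, had 28.4 ± 26.3 per kb in Vehicle. Its signals were 9.59, 0, 5.72 and 18.8 in Vehicle and 5.99, 6.69, 3.58 and 5.02 in iMSBmal1KO, at most 14 reads in any library, and it was too low to be tested. Rps27a, which encodes a fusion of ubiquitin with a small subunit protein, had 41.9 ± 22 per kb, and Rplp2, a protein of the acidic stalk, 44.4 ± 46.4 per kb. Rps3a1 had 75.7 ± 24.5 and Rps27 85.9 ± 23.7 per kb. Of these 5 genes, all but Rpl10l had a strong region close to a start that the table counted for a neighbour.

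For 8 members the strongest region within 1000 bp of a start was annotated to another gene: a protein-coding gene in 4 cases, a small nucleolar RNA in 3 and a long intergenic RNA in 1. At Rps27a it counted for Clhc1 (chromosome 11, 29547805 to 29548383), with a mean Vehicle signal of 397. Over the start of Rplp2 lay a region annotated to the small nucleolar RNA Snora52 (chromosome 7, 141447239 to 141447893), with 531. At Rps20 the region was annotated to the small nucleolar RNA Gm24016 (chromosome 4, 3835401 to 3835987), with 485. The region at Rps27 was annotated to Rab13, with 321, that at Rps3a1 to Gm37933, with 325, and that at Rpl36al to Mgat2, with 496. Rpl18 had a strong neighbouring region annotated to Sphk2, with 438, and its RefSeq start, 2614 bp from the table's start, lay in a region that was also annotated to Sphk2. At Rpl32 a region of 82.2 was annotated to Snora7a. A count by position gives a gene every region within 1000 bp of its start, whatever the annotation. It left 1 of 76 members below the 10th percentile of summed signal, against 4 of 75 by annotation.

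**Figure D2:**
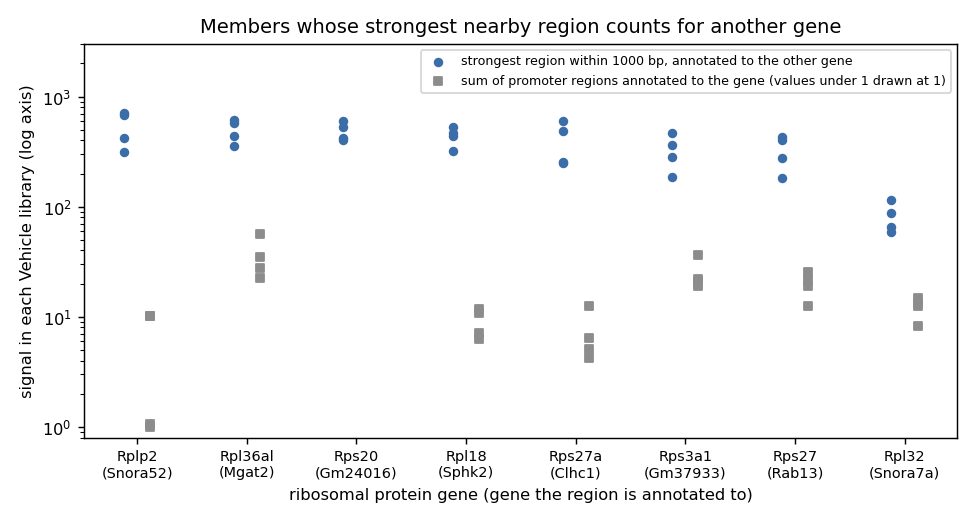
Signal in each of the 4 Vehicle libraries (log axis) for the 8 members whose strongest nearby region is annotated to another gene, named in brackets. Circles show that region, and squares the sum of the promoter regions annotated to the member itself, with values under 1 drawn at 1; Rps20 has none. In every library and for each of the other members the circle lies above the square.

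The comparison of iMSBmal1KO with Vehicle asks how accessibility at ribosomal protein genes differs after the muscle clock gene is targeted. Of the 76 genes, 71 passed the filter on low signal by promoter (43 of the large and 28 of the small subunit). With limma and Benjamini-Hochberg adjustment over 12977 genes, 0 of the 71 had an adjusted p under 0.05, where the background was 0.123% of all genes. limma-voom on read equivalents also called 0. The smallest adjusted p of a member was 0.340. At an unadjusted p under 0.05, 14 of the 71 (19.7%) passed, against a background of 11.2% of genes. All 14 were higher, where 10.1% of all genes were higher and 1.13% lower. The median log2 change was 0.30, against 0.16 for all genes tested, and 67 of the 71 changes were above 0 while 52 were above the median of all genes. Relative to that median, the members' median was 0.14. The count at an unadjusted p under 0.05 (limma) depended on single libraries. It was 5 of 71 (7.04%) without Vehicle replicate 4 and 37 of 71 (52.1%) without Vehicle replicate 2. The shares over all genes in those fits are not reported here.

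**Figure D3:**
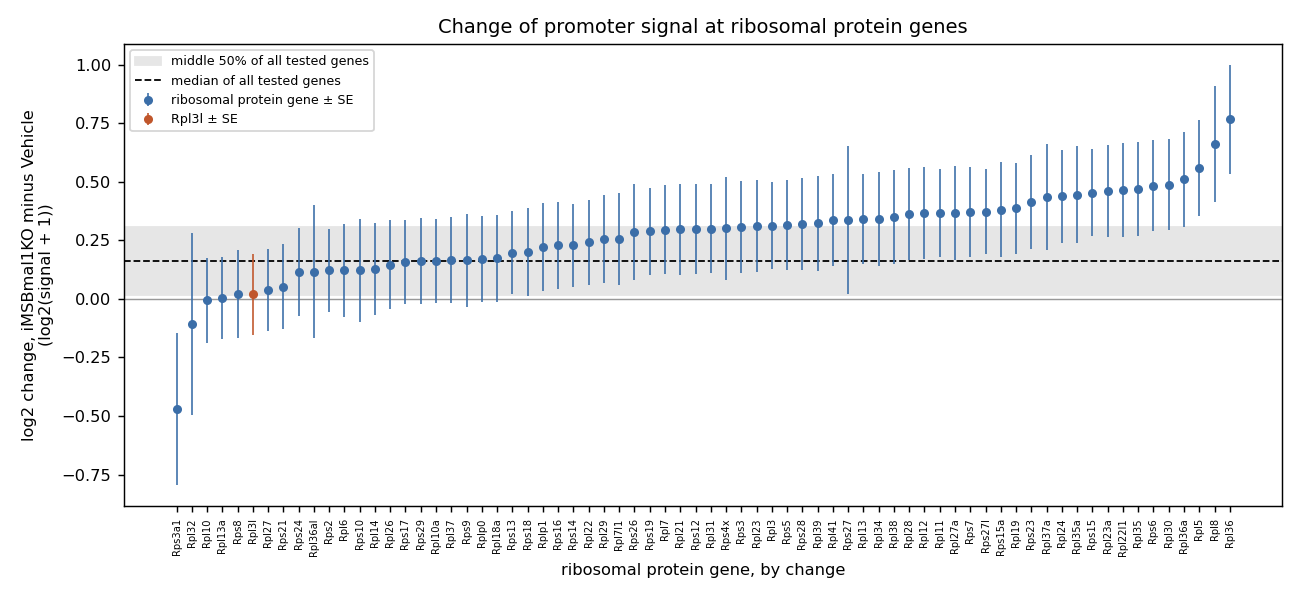
Log2 change of promoter signal, iMSBmal1KO minus Vehicle, for the tested ribosomal protein genes in rising order (1 of the 71 not drawn), with standard errors from limma (n = 4 libraries a group). The dashed line is the median of all tested genes, 0.16, and the band their interquartile range, 0.01 to 0.31. Changes run from -0.47 at Rps3a1 to 0.77 at Rpl36, and none passed the test; Rpl3l is marked at 0.02.

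The shift of all genes depended on the scaling of the libraries. The median change of all genes was 0.16 with the deposited scaling, 0.05 with median-of-ratios factors, 0.04 with total nuclear signal and 0.00 with loess scaling. Relative to it, the members' median was 0.13, 0.13 and 0.10 under those 3 alternatives. It was 0.09 without Vehicle replicate 4 and 0.08 without Vehicle replicate 3.

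Rpl36, a large subunit gene, had the smallest p of the members. Its promoter signal was 128, 171, 106 and 59.4 in Vehicle and 194, 222, 153 and 178 in iMSBmal1KO (log2 change 0.77 ± 0.23 SE, limma adjusted p = 0.340). Vehicle replicate 2 lay above iMSBmal1KO replicate 3, so the groups overlapped. Rpl5, which with Rpl11 binds MDM2 when ribosome assembly fails, had 300, 367, 220 and 156 in Vehicle and 382, 404, 334 and 348 in iMSBmal1KO (log2 change 0.56 ± 0.21, adjusted p = 0.399). There too only Vehicle replicate 2 reached into the range of the other group. For Rpl8, whose protein lies close to the catalytic centre, the signal was 87.4, 111, 116 and 43.8 in Vehicle and 167, 153, 96.6 and 127 in iMSBmal1KO (0.66 ± 0.25, adjusted p = 0.399), and iMSBmal1KO replicate 3 lay within the Vehicle range. Rpl36a had 161, 155, 154 and 87.5 in Vehicle and 201, 196, 193 and 183 in iMSBmal1KO (0.51 ± 0.20, adjusted p = 0.403), with no overlap between groups. Rpl30 had 510, 519, 322 and 294 in Vehicle and 533, 681, 520 and 513 in iMSBmal1KO (0.49 ± 0.19, adjusted p = 0.403), and Vehicle replicate 2 lay above iMSBmal1KO replicate 4.

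In 3 of the 71 members (4.23%) every iMSBmal1KO library lay above every Vehicle library, namely Rpl13, Rpl36a and Rps15, and in 0 the reverse. The background was 3.46% of genes higher and 0.84% lower, so the members' share was close to the background. Rps15, which encodes a small subunit protein needed for export of the subunit from the nucleus, had 242, 266, 205 and 194 in Vehicle and 311, 350, 268 and 310 in iMSBmal1KO. Its lowest iMSBmal1KO value exceeded its highest Vehicle value by a small margin.

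Leaving out 1 library changed the count of calls. Without Vehicle replicate 2, 6 of the 71 members were called, all higher, where the background was 5.17% of genes (671 of 12977). They were Rpl36 (log2 change 0.98, limma adjusted p = 0.00149), Rpl5 (0.75, 0.0152), Rpl8 (0.79, 0.0185), Rps6 (0.63, 0.0395), Rpl22l1 (0.63, 0.0417) and Rpl30 (0.62, 0.0438). The count was 0 without any other single library. Rps6, whose protein is the substrate of S6 kinase, had 354, 431, 283 and 228 in Vehicle and 458, 504, 419 and 390 in iMSBmal1KO. Vehicle replicate 2 was the highest Vehicle library in 47 of the 71 members and had the lowest mitochondrial share of its group, 2.26%. Its part in the result was not tested beyond leaving it out.

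Few members had a lower value in iMSBmal1KO. Rps3a1 had 19.2, 20.5, 36.2 and 21.9 in Vehicle and 20.1, 13.4, 13.1 and 22.6 in iMSBmal1KO (log2 change -0.47 ± 0.32, limma adjusted p = 0.541). Rpl32 had a change of -0.11 ± 0.39, from 4 to 35 reads a library. Both belong to the 8 genes with a stronger region counted for a neighbour, and by position their changes were 0.49 and 0.42. Rpl10, whose protein joins the large subunit last, had a change of -0.01 ± 0.18. By position, 75 members were tested with limma and 0 were called, against a background of 0.124%. At an unadjusted p under 0.05, 20 of the 75 (26.7%) were higher, against 10.6% of all genes.

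The 6 genes with CACGTG in their promoter window had log2 changes of 0.00 (Rpl13a), 0.13 (Rpl14), 0.29 (Rps19), 0.31 (Rpl23), 0.34 (Rpl34) and 0.39 (Rpl19). Their adjusted p-values (limma) lay between 0.449 and 0.993, and 4 of the 6 lay above the median of all genes.

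Region by region, 164 of the 356 regions (46.1%) passed the filter, against 25.5% of all regions. At an adjusted p under 0.05 (limma, over 124901 regions), 0 of the 164 were called, against a background of 0.0881%, and limma-voom also called 0. At an unadjusted p under 0.05, 15 (9.15%) passed, against a background of 9.22%. Of them 14 were higher and 1 lower, where 6.59% of all regions were higher and 2.63% lower. The smallest adjusted p was 0.453, at a region just downstream of the start of Rpl41, the gene of the shortest ribosomal protein (chromosome 10, 128548972 to 128549088). There the signal was 35.2, 34.9, 17.8 and 15.6 in Vehicle and 36.0, 44.3, 50.1 and 52.7 in iMSBmal1KO, a log2 change of 0.87 ± 0.31. The groups did not overlap, though Vehicle replicates 1 and 2 came close to iMSBmal1KO replicate 1.

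In 6 of the 164 regions (3.66%) all iMSBmal1KO libraries were higher and in 1 (0.610%) all were lower, against 3.62% and 1.87% of all regions. Besides Rpl41, the higher ones were at the starts of Rps15, Rps6, Rpl36a, Rpl10 and Rpl13. At Rps6 (chromosome 4, 86857102 to 86857299) the signal was 68.2, 87.3, 57.8 and 12.5 in Vehicle and 108, 114, 100 and 105 in iMSBmal1KO, with Vehicle replicate 4 far below its group. The lower one lay 537 bp upstream of a start of Rpl10a (chromosome 17, 28327938 to 28328062), with 19.2, 17.5, 19.7 and 21.9 in Vehicle and 11.1, 14.2, 15.5 and 12.5 in iMSBmal1KO, from 7 to 31 reads a library (log2 change -0.52 ± 0.31, adjusted p = 0.590). Away from the starts, a region in an intron of a long Rpl11 transcript (chromosome 4, 136030989 to 136031288) had a log2 change of 0.72 ± 0.26 (adjusted p = 0.465).

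The members tended to be high or low in the same libraries. Their promoters held 0.258%, 0.282%, 0.231% and 0.206% of nuclear signal across Vehicle replicates 1 to 4 and 0.294%, 0.289%, 0.222% and 0.245% in iMSBmal1KO. The group means were 0.244% ± 0.0332 for Vehicle and 0.262% ± 0.0346 for iMSBmal1KO (SD of 4 libraries). The difference, 0.0180 percentage points, was smaller than the SD within either group, and the groups overlapped. It ranged from 0.00518 without Vehicle replicate 4 and 0.00755 without iMSBmal1KO replicate 1 to 0.0308 without Vehicle replicate 2 and 0.0314 without iMSBmal1KO replicate 3, and it was 0.00928 without iMSBmal1KO replicate 2. Vehicle replicate 4 was the lowest of its group in 55 of the 71 tested members, and iMSBmal1KO replicate 2 the highest of its group in 56. iMSBmal1KO replicate 3 was the lowest in 44. Within each group, the mitochondrial share of read equivalents ran opposite to the ribosomal protein share. It was 3.31%, 2.26%, 5.51% and 16.5% in Vehicle and 1.11%, 1.40%, 3.06% and 2.70% in iMSBmal1KO. In each group the 2 libraries with the lowest mitochondrial share had the highest ribosomal protein share. The part of the mitochondrial share in the result was not tested.

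**Figure D4:**
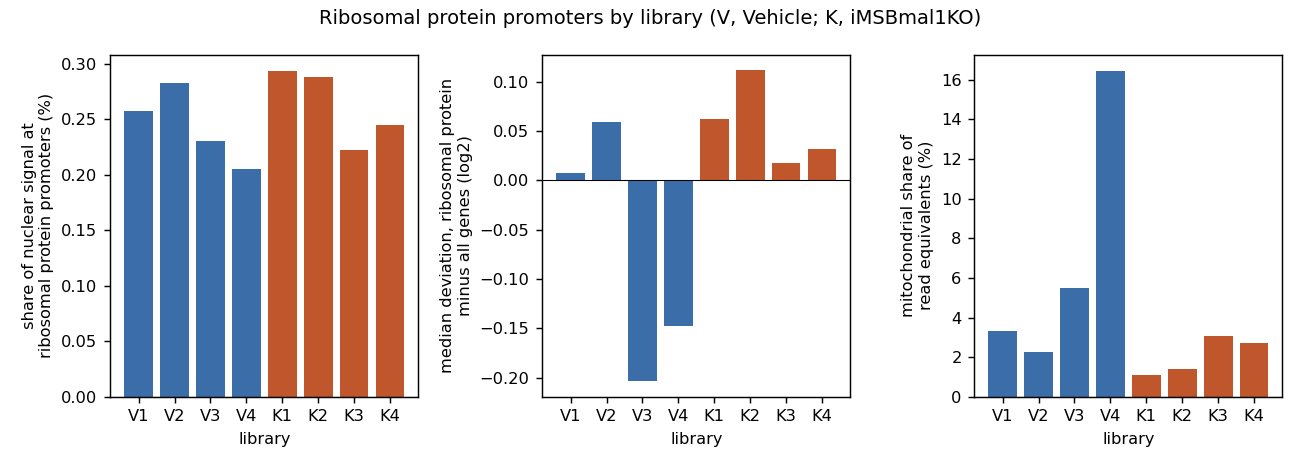
Left, the percentage of nuclear signal at ribosomal protein promoters in each library. Middle, the median deviation of the 71 members minus that of all tested genes, each gene's log2 value taken relative to its mean over the 8 libraries. Right, the mitochondrial percentage of read equivalents. V1 to V4 are Vehicle and K1 to K4 iMSBmal1KO replicates; V3 and V4 have the lowest middle bars, at -0.20 and -0.15, and the highest mitochondrial shares.

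Rpl3l stood out among the paralogues by its level. Its promoter regions summed to 1640, 1680, 1505 and 1076 in Vehicle and 1545, 1522, 1558 and 1290 in iMSBmal1KO. The value per kb in Vehicle, 1103 ± 207, was at the 95.5th percentile of protein-coding genes. The log2 difference from Vehicle was 0.02 ± 0.17 SE (limma, adjusted p = 0.967), and the groups overlapped throughout. Nearly all of the signal came from 2 regions. The downstream start lay in a region of 536 bp (chromosome 17, 24732438 to 24732973) with a mean Vehicle signal of 967 ± 180, and the upstream start in a region of 388 bp (24727709 to 24728096) with 381 ± 83.5 (SD, n = 4). Per kb these were 1804 and 982, so the downstream start was the more accessible. Their changes were 0.04 ± 0.18 and -0.05 ± 0.20.

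Beyond the starts of Rpl3l, a short region at the transcript end (chromosome 17, 24733031 to 24733087) had 28.8, 23.6, 32.4 and 15.6 in Vehicle and 21.4, 12.5, 15.5 and 8.78 in iMSBmal1KO. Its log2 change, -0.76 ± 0.34, was the lowest of the 164 tested member regions and did not pass the test (limma, adjusted p = 0.529). It lies just beyond the region over the downstream start.

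Rpl3, whose protein reaches towards the catalytic centre and is made in most tissues, had promoter signals of 571, 605, 425 and 397 in Vehicle and 676, 662, 533 and 582 in iMSBmal1KO (log2 change 0.31 ± 0.18, limma adjusted p = 0.493). Its strongest region (chromosome 15, 80083132 to 80083681, 550 bp) had a mean of 426 ± 95.1 in Vehicle and 541 ± 62.7 in iMSBmal1KO. Per kb the strongest Rpl3 region had 775 in Vehicle, below both starts of Rpl3l. The ratio of Rpl3l to Rpl3 promoter signal was 2.87, 2.78, 3.55 and 2.71 in Vehicle and 2.28, 2.30, 2.92 and 2.22 in iMSBmal1KO. Only iMSBmal1KO replicate 3 reached the Vehicle range.

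The Rpl3l to Rpl3 log2 ratio averaged 1.56 ± 0.18 over the Vehicle libraries and 1.27 ± 0.18 over the iMSBmal1KO libraries (SD, n = 4 per group), and the means differed by -0.29. The change of Rpl3 alone, 0.31, was close to the members' median of 0.30, while that of Rpl3l was 0.02. The difference is therefore not particular to this pair. A two-sided exact permutation test gave p = 0.114, and 0.514 after adjustment over 6 paralogue pairs. The smallest p that 4 against 4 libraries allow is 0.0286. With the other pairs as found, even that p could not pass after adjustment, so the adjusted p cannot decide whether the ratio differs. Without iMSBmal1KO replicate 3 the difference was -0.38 with an exact permutation p of 0.0286, the smallest that 4 against 3 libraries allow. Only that library reached the Vehicle range, so leaving it out fixed this p in advance and it adds no support. With any other single library left out, the exact permutation p was 0.114 to 0.229.

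**Figure D5:**
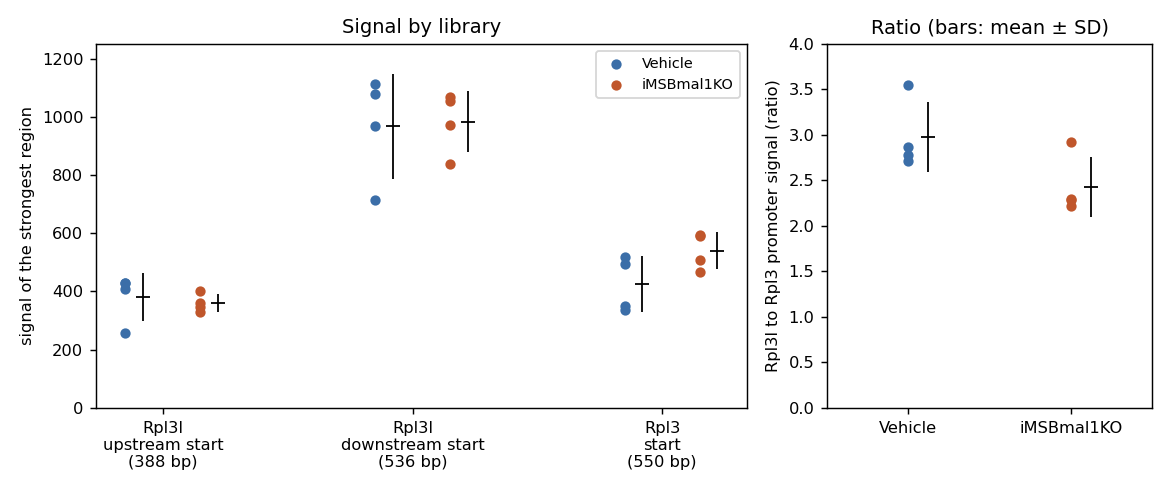
Left, signal of the strongest region at the upstream and downstream starts of Rpl3l and at Rpl3, with region lengths in brackets, one point per library. Right, the ratio of Rpl3l to Rpl3 promoter signal. Bars give the mean and SD of 4 libraries; the Rpl3l groups overlap at both starts, and the mean ratio is 2.98 in Vehicle and 2.43 in iMSBmal1KO.

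Among members, the genes whose promoter signal followed that of Rpl3l most closely over the 8 libraries were Rps26, Rps2 and Rps21, with Pearson correlations of log2 signal of 0.85, 0.85 and 0.83. Rpl3 had 0.60. The 8 points share their library scaling, so these values only describe likeness.

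The other 5 paralogue pairs showed no difference in log2 ratio that passed an exact permutation test. Rpl22l1, a paralogue that can replace Rpl22, had 554 ± 169 per kb in Vehicle against 787 ± 106 at Rpl22, and the ratio differed by 0.22 between groups (exact permutation p = 0.171). Rpl7l1 had 172 ± 28.0 per kb against 549 ± 155 at Rpl7, with a difference of -0.04 (exact permutation p = 0.857). Rps27l, a paralogue induced by p53, had 676 ± 135 per kb against 85.9 ± 23.7 at Rps27, whose start region counts for Rab13, and the ratio differed by 0.04 (exact permutation p = 0.886). The pairs of Rpl36al with Rpl36a and of Rpl10l with Rpl10 differed by -0.39 and 0.03 (exact permutation p = 0.629 and 1), the first resting on a member whose start region counts for Mgat2 and the second on 0 to 14 reads a library. By annotation, Rps27l was the one of these 5 paralogues that exceeded its partner. By position its mean log2 ratio of summed signal to Rps27 in Vehicle was 0.88 in place of 4.92. That of Rpl36al to Rpl36a was 1.95 in place of -1.99, so both then exceeded their partners. Unlike the levels per kb, the log2 ratios of all pairs were not corrected for length.

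Rps4x, the X-linked member with a Y-linked counterpart in primates, had 93.8, 82.2, 83.9 and 59.4 in Vehicle and 104, 125, 66.8 and 103 in iMSBmal1KO, a log2 change of 0.30 ± 0.22 (limma, adjusted p = 0.552). Its level, 103 ± 18.7 per kb, was at the 31.4th percentile, low among members whose own region is the strongest at their start.

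By subunit, 10 of 43 large and 4 of 28 small subunit genes were higher at an unadjusted p under 0.05 (limma), 0 were lower and 0 were called in either. The background for this count and those of the lists that follow was 10.1% of genes higher and 1.13% lower. Their median changes relative to all genes were 0.15 and 0.10. Translation factors and other genes with TOP transcripts had a relative median of -0.01 over 13 genes, 3 of them higher at an unadjusted p under 0.05. Ribosome biogenesis genes had 0.07 over 16 of 18 genes tested, with 4 higher. Mitochondrial ribosomal protein genes, which serve the separate ribosome of the mitochondrion, had 0.17 over 69 of 73 genes, with 27 higher and 1 lower, and proteasome subunit genes had 0.12 over 34 of 38, with 5 higher. At an adjusted p under 0.05, 0 genes of these lists were called, and every list given here but the translation factors had a positive relative median. With loess scaling that of the translation factors was 0.07 and that of the biogenesis genes 0.02.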

How the data were processed

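ATAC-seq was measured in 8 libraries of mouse gastrocnemius, 4 a group. The values are a scaled signal per region, as the authors deposited it in 1 table: 98.3% to 99.8% of non-zero values in a library were whole multiples, within 0.02 reads, of the value 1 read adds. Whole reads were not used, since a few values in the deposited table break this pattern, so no test on whole counts was run. As an alternative, limma-voom was run on read equivalents. The submitters' processing notes name Partek, Bowtie2, MACS2 and DESeq2 and the builds mm10 and GRCm39, with no role; the build of the deposited table is not given in the sources used here, and its ribosomal protein starts match GRCm38, with 40 of 69 RefSeq starts within 50 bp of a start in the table.

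Regions within 1000 bp of an annotated start were summed per protein-coding gene. Rows needed at least 0.762 per M read equivalents in 4 libraries and 15 in total. log2(signal + 1) was fitted on group with limma 3.58.1 (trend, robust) in R 4.3.3, two-sided, with Benjamini-Hochberg adjustment over all rows and a threshold of 0.05. The pseudocount of 1 understates changes of low rows. The code was tested on simulated data. The paralogue ratio was tested by exact permutation over 70 arrangements. Other scalings, filters, pseudocounts, windows, a replicate block, limma-voom, each library left out and, added after the data were seen, promoters by position were tried.

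Named genes were the paralogue pairs, members called, the 5 with the smallest p in each direction and the 5 highest and 5 lowest in baseline, the regions with the smallest p, and the 3 members most like Rpl3l. Rpl13, Rpl41, Rps6, Rps15, Rps14, Rps4x, the 8 members with neighbours, and the genes with printed sequences were named for the text's counts after their values were seen. Values of 1 member and of 1 list of related genes are not reported here. Members and lists were chosen with earlier results of these data known.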

Additional observations from a re-analysis of the deposited data

Results flagged for a closer look

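Of 82 sets of 4 libraries examined for a single library far from the other 3 (Dixon's gap ratio), 7 stood out, where chance gives about 4.1. The Rpl3l to Rpl3 log2 ratio of iMSBmal1KO replicate 3 was 1.55, against 1.15 to 1.20 in the others. Rpl3l promoter signal in iMSBmal1KO replicate 4 was 1290, against 1522 to 1558. Rpl30 had 681 in iMSBmal1KO replicate 2 (others 513 to 533), and Rpl7 had 633 in iMSBmal1KO replicate 1 (others 799 to 824). Rpl36a had 87.5 in Vehicle replicate 4 (others 154 to 161), the library of lowest depth. Rps3a1 had 36.2 in Vehicle replicate 3 (others 19.2 to 21.9). The intronic Rpl11 region that starts at 136030989 had 57.3 in iMSBmal1KO replicate 3 (others 87.0 to 92.8).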

How the results depend on the processing

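The count of ribosomal protein genes called was 0 under every scaling, filter, pseudocount, window and by position, 0 with limma-voom, and 0 to 6 with 1 library left out (6 without Vehicle replicate 2). Of ribosomal protein regions, 0 were called under every alternative. Over all regions the count of 110 moved to 279 with median-of-ratios factors, 218 with total nuclear signal, 342 with loess scaling, 195 without a filter, 651 with limma-voom and 32 to 281 with 1 library left out. Over all genes the count of 16 moved to 33 with limma-voom and 5 to 671 with 1 library left out. The cause was not tested. The Rpl3l to Rpl3 difference ran from -0.38 to -0.21 with 1 library left out, and its exact permutation p from 0.0286 to 0.229.

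Whether replicate numbers pair the libraries is not known. Same-numbered deviations over genes correlated at -0.17, 0.32, 0.01 and 0.03, and not every library correlated best with its own number. With 4 libraries a group, these correlations cannot decide it. With the replicate block, 231 of 12977 genes and 100 regions were called. Among the 71 members, 2 were called (2.82%), Rpl36 and Rpl5 (limma adjusted p = 0.0141 and 0.0444). The Rpl3l to Rpl3 ratio was lower in iMSBmal1KO for all 4 numbers, and its exact sign-flip permutation p of 0.125 is the smallest that 4 pairs allow, so this test could not pass.

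Of the genes followed under every alternative (the paralogues and those leading or trailing in change or baseline), 5 turned sign relative to all genes. Rps3a1 had 0.33 and Rpl32 0.25 by position. Rpl36al had 0.044 with loess scaling, 0.16 with limma-voom, 0.078 by position, and -0.27 to 0.29 with 1 library left out (above 0 without Vehicle replicate 4 and, at 0.09, without iMSBmal1KO replicate 3). Rps27 had -0.026 with limma-voom and -0.025 without iMSBmal1KO replicate 3. Rps29 had 0.095 with loess scaling, 0.0075 without a filter, 0.0030 with a pseudocount of 5, 0.0064 with a window of 3000 bp, and -0.087 to 0.15 with 1 library left out. The edgeR fit foreseen for raw counts was not run, since the values are a scaled signal. Vehicle replicate 4, with 4.31 M read equivalents, limits weak regions most.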
